A study of Mus musculus with 6 samples.

Results

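The regulators of G protein signalling described here are 8 RGS genes of striatum (Rgs2, Rgs4, Rgs7, Rgs8, Rgs9, Rgs10, Rgs14 and Rgs20) and 2 genes for partners of the R7 subfamily, Gnb5 and Rgs7bp. They were taken by symbol from a deposited table of 23067 genes, and each of the 10 matched 1 row. The libraries were made from total RNA of dorsal striatum of mice at postnatal day 21. There were 3 libraries from Lrrk2WT/WT wild-type mice and 3 from Lrrk2G2019S/G2019S mice, which carry on both alleles the G2019S change in the kinase LRRK2 that is known from familial Parkinson's disease. The labels state no strain and do not tie each sample to an animal of its own. The p-values therefore rest on the spread between samples, part of which may be technical.

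RGS proteins speed up GTP hydrolysis by the alpha subunits of heterotrimeric G proteins and so shorten the signal of G protein-coupled receptors. The R7 subfamily (Rgs6, Rgs7, Rgs9 and Rgs11) works as a complex: the RGS protein binds the G protein beta subunit Gbeta5, the product of Gnb5, and an anchor such as R7BP, the product of Rgs7bp, holds the pair at the membrane. In striatal projection neurons the long form of RGS9 is known for curbing dopamine D2 and opioid receptor signalling, and RGS4 acts on Gi/o and Gq signalling there.

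Levels are FPKM, the authors' value per gene and library scaled for transcript length and library size, and read counts were not recovered from them. The sum over genes lay between 314146 and 335508 FPKM per library. Of 17 marker genes of striatal projection neurons 17 were tested, with 9 higher and 8 lower in knock-in striatum and 0 called, and Ppp1r1b stood at 796 ± 37.5 FPKM in wild-type striatum and 768 ± 15.8 FPKM in knock-in striatum (SD, n = 3 each). Their summed level was 3071 to 3205 FPKM in wild-type striatum and 2998 to 3349 FPKM in knock-in striatum. The sample titles give male mice, yet Xist, the RNA of the inactive X chromosome in females, was at 27.2 to 39.3 FPKM in all 6 libraries, so the titles and this level disagree in both genotypes alike. The Y-linked genes Ddx3y, Eif2s3y, Kdm5d and Uty had no values in the deposited table. Of 13 cortical excitatory neuron markers 12 had values, and their summed level ran from 14.4 to 29.1 FPKM in wild-type striatum and from 14.5 to 68.0 FPKM in knock-in striatum. Slc17a7, the cortical glutamate transporter, reached 29.9 FPKM in knock-in replicate 1, 25.2 FPKM in knock-in replicate 2 and 11.0 FPKM in wild type replicate 1, and lay between 2.73 and 3.55 FPKM elsewhere. All 8 tested cortical markers were on average higher in knock-in striatum. All tested markers of oligodendrocytes (10), their precursors (8), ependyma (7), choroid plexus (2) and blood (5) were on average lower, as were 8 of 10 of astrocytes and 7 of 12 of endothelial and mural cells. The summed level of the 6 choroid plexus markers was 384 FPKM in wild type replicate 2 and 6.54 to 21.8 FPKM in the other libraries. Blood markers summed to 761 FPKM in knock-in replicate 3 and to 1136 to 1479 FPKM in the other libraries. Of interneuron markers 4 of 6 cholinergic and 5 of 9 GABAergic ones were higher, and limma called 0 genes in each of these lists. Its unadjusted p was under 0.05 for 4 of 10 oligodendrocyte, 2 of 8 precursor, 4 of 7 ependyma and 1 of 2 choroid plexus markers. In the other lists 0 markers were under 0.05, beside 4.27% of all genes tested. In bulk tissue, fewer cells of a type and less RNA per cell cannot be told apart.

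Rgs4 was by far the most abundant of the 10 genes, and Rgs9, Gnb5 and Rgs7bp, 3 of the 4 genes of the R7 complex among them, came next. The 120 bases upstream of their RefSeq start sites (GRCm38.p6, 5′ to 3′ on the gene's strand) are shown because these 4 genes had the highest levels and 3 of them encode 1 complex. Capitals mark matches, on either strand, to TATAAA, the core promoter letters bound by TBP, to CCAAT, bound by factors such as NF-Y, to GGGCGG, bound by Sp1, or to TGACG, the core of the cAMP response element.
Rgs4: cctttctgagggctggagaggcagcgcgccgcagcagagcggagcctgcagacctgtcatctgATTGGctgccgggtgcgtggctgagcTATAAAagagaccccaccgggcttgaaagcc
Rgs9: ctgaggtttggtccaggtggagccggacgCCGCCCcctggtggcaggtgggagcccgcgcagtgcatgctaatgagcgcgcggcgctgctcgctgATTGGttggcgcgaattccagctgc
Rgs7bp: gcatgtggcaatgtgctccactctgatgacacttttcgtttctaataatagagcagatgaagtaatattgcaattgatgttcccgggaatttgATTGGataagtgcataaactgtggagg
Gnb5: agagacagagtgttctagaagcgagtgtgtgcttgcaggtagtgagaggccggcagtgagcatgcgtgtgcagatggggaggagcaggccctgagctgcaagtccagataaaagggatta
The stretches lie at chr1:169747643-169747762, minus strand for Rgs4, chr11:109298182-109298301, minus strand for Rgs9, chr13:105054931-105055050, minus strand for Rgs7bp and chr9:75306168-75306287, plus strand for Gnb5. Counted to the first base of the match, Rgs4 had TATAAA 31 bases before its start and a CCAAT match 57 bases before it. Rgs9 and Rgs7bp had a CCAAT match 25 and 27 bases before the start, Rgs9 also had GGGCGG 91 bases before it, and Gnb5 had none of the 4 motifs in the stretch shown. Of the 10 genes, 8 had an upstream window in the table, with 10 windows in all since Rgs8 has 3 start sites. Within 250 bases of the start TATAAA was present in 3 of these 10 windows and in 12.37% of 32851 windows of all genes, CCAAT in 6 and 33.85%, GGGCGG in 3 and 32.74%, and TGACG in 4 and 17.77%. None of the motifs contains another, and a match describes the letters only. The genes of the complex also differed in CpG content, with 22 CpG dinucleotides in the 250 bases of Rgs7, 14 in those of Rgs9, 5 in those of Rgs7bp and 3 in those of Gnb5, against 13 in those of Rgs4.

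The comparison of genotypes asked whether the G2019S change alters RNA levels in the young striatum. Across the 10 genes no difference passed the test: 0 of 10 were called by limma at an adjusted p under 0.05, where 0.0212% of all 14156 genes tested were, and 0 of 10 had an unadjusted p under 0.05, where 4.27% of all genes did. The ranges of the 2 groups overlapped for each of the 10 genes, so 0 were separated between genotypes, against 9.51% of all genes tested. Of the 10 genes 6 were on average higher and 4 lower in knock-in striatum, with a median difference of 0.024 on the log2(FPKM + 1) scale, beside -0.014 over all genes tested. Ratios of the group means ran from 0.953 for Rgs2 to 1.07 for Gnb5. The 95% intervals of the fold, on the log2(FPKM + 1) scale, reached no lower than 0.814, for Rgs2, and no higher than 1.26, for Gnb5. Differences within these intervals could not be told from no difference with these 6 libraries. Adjusted p-values of genes below are from this limma fit over all genes, except where a covariate or a left-out library is named, which are from the same fit with that change.

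**Figure D1:**
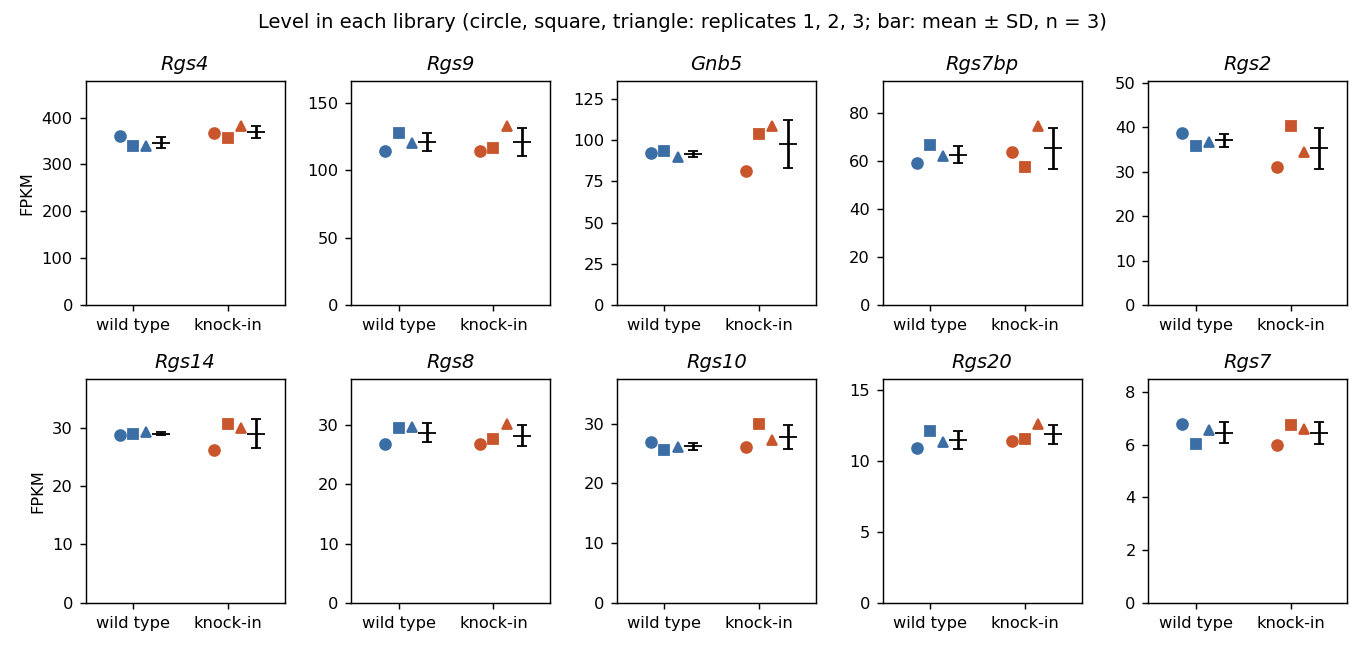
Level in FPKM (y axis, from 0) of the 10 genes in each of 3 wild-type and 3 knock-in libraries, with the mean and SD of each group beside the points. The groups overlap in each of the 10 panels, and the spread of the knock-in points is wide for Gnb5 (81.1 to 109 FPKM) beside the wild-type points (89.8 to 93.4 FPKM).

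Rgs4 and the other members of the R4 subfamily, small proteins made of little more than the RGS domain, are taken first. Rgs4 (ENSMUSG00000038530, chromosome 1 at 169741477 to 169747642) was at 360, 340 and 339 FPKM in wild type replicates 1 to 3 and at 368, 356 and 382 FPKM in knock-in replicates 1 to 3. Only knock-in replicate 2 lay inside the wild-type range, since the other knock-in libraries exceeded all wild-type values. The means were 346 ± 11.9 and 369 ± 13.1 FPKM (SD, n = 3 each). On the log2 scale the difference was 0.09 (SE 0.07, unadjusted p = 0.214, adjusted p = 0.997), and its 95% interval as a fold ran from 0.956 to 1.19. This was the smallest unadjusted p among the 10 genes. By mean level it ranked 70 of the 14156 genes tested.

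Rgs2, which prefers Gq and is also known as a rapidly inducible transcript, had the lowest ratio of the 10 genes. It lies on chromosome 1 at 143999338 to 144004161 (ENSMUSG00000026360). It was at 38.7, 35.8 and 36.6 FPKM in wild-type striatum and at 31.1, 40.3 and 34.5 FPKM in knock-in striatum. Knock-in replicates 1 and 3 were below all wild-type libraries and knock-in replicate 2 was above all of them. The log2 difference of -0.07 (SE 0.10, adjusted p = 0.997) had an interval of the fold from 0.814 to 1.11. Without knock-in replicate 2 it was -0.17 (unadjusted p = 0.0453, adjusted p = 0.815), and without knock-in replicate 1 it was 0.0094. Immediate early genes were on average lower in knock-in striatum in 11 of 12 tested, with 0 called. Their summed level was 220 to 250 FPKM in wild-type striatum and 218, 232 and 159 FPKM in knock-in replicates 1, 2 and 3. It was thus below the wild-type range mainly in knock-in replicate 3, while Rgs2 was lowest in knock-in replicate 1. The part of the immediate early genes in the values of Rgs2 was not tested.

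Rgs8 (ENSMUSG00000042671, chromosome 1 at 153653025 to 153700323), a neuronal regulator of Gi/o signalling, was the third R4 gene. It ranged from 26.8 to 29.6 FPKM in wild-type striatum and from 26.7 to 30.2 FPKM in knock-in striatum, and the 2 ranges were nearly the same. Its log2 difference was -0.024, with an interval of the fold from 0.877 to 1.10, and 70 of its exon bases lie opposite the predicted gene Gm29529.

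The R7 complex was represented by Rgs9, Rgs7, Gnb5 and Rgs7bp. Rgs9 (ENSMUSG00000020599, chromosome 11 at 109225355 to 109298129) was at 114, 128 and 121 FPKM in wild-type striatum and at 114, 116 and 133 FPKM in knock-in striatum. Its means of 121 ± 6.77 and 121 ± 10.3 FPKM (SD, n = 3 each) differed by 0.0013 on the log2 scale (SE 0.08, adjusted p = 0.998), and as a fold its interval ran from 0.877 to 1.14. The annotation lists 5 transcripts of Rgs9, and values per gene do not separate the long striatal form from the retinal form. Rgs7 (ENSMUSG00000026527, chromosome 1 at 175059087 to 175492500), the R7 member of wide neuronal expression, was the least abundant of the 10 genes at 6.45 ± 0.398 FPKM in wild-type striatum and 6.44 ± 0.407 FPKM in knock-in striatum (SD, n = 3 each), a log2 difference of -0.0030. Rgs9 thus stood at a level more than an order of magnitude above that of Rgs7 in both genotypes.

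Gnb5 (ENSMUSG00000032192, chromosome 9 at 75306288 to 75345876) was the gene whose knock-in libraries lay farthest apart. It was at 92.1, 93.4 and 89.8 FPKM in wild-type striatum and at 81.1, 104 and 109 FPKM in knock-in striatum. Knock-in replicate 1 was below all wild-type libraries and the other 2 were above all of them, so that no knock-in value fell inside the narrow wild-type range. The means were 91.8 ± 1.81 and 97.7 ± 14.6 FPKM (SD, n = 3 each), and the log2 difference of 0.08 (SE 0.11, adjusted p = 0.997) had the widest interval of the fold among the 10 genes, from 0.885 to 1.26. Without knock-in replicate 1 it was 0.21 (unadjusted p = 0.0231, adjusted p = 0.979), and without knock-in replicate 3 it was -0.0017. A stretch of 248 exon bases of Gnb5 lies opposite the predicted gene Gm19531, and the strand setting of the counting is not given in the sources used here.

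Rgs7bp (ENSMUSG00000021719, chromosome 13 at 104945904 to 105054930), the palmitoylated anchor, was at 59.2, 66.5 and 62.2 FPKM in wild-type striatum and at 63.7, 57.6 and 74.6 FPKM in knock-in striatum. Knock-in replicate 3 was the highest library and knock-in replicate 2 the lowest. The log2 difference was 0.05 (SE 0.10, adjusted p = 0.997), and leaving out knock-in replicate 2 gave 0.14 and leaving out knock-in replicate 3 gave -0.05. With the mean level of the cortical markers as a covariate the differences of Rgs9, Rgs7bp and Gnb5 were 0.11, 0.19 and 0.21, with adjusted p-values of 0.626, 0.535 and 0.575. In that fit Rgs7 was at 0.011 (adjusted p = 0.979). Outside the complex Rgs4 and Rgs20 were at 0.11 and 0.12, Rgs8, Rgs10 and Rgs14 at 0.068, 0.068 and 0.051, and Rgs2 at -0.078. Over all genes, 1438 had an unadjusted limma p under 0.05 with the covariate, against 604 without it.

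Since the proteins assemble with each other, the balance of the transcripts within each library was compared next. The summed level of the 4 R7 genes over that of Gnb5 was 1.48, 1.57 and 1.56 in wild-type striatum and 1.68, 1.32 and 1.41 in knock-in striatum. Knock-in replicate 1 was above the wild-type ratios and knock-in replicates 2 and 3 were below them. The mean log2 ratios of 0.62 ± 0.05 and 0.55 ± 0.18 (SD, n = 3 each) differed by -0.07 (exact permutation test, two-sided, p = 0.6, where 3 against 3 cannot go below 0.1). Without knock-in replicate 2 the difference was 0.0025, and without knock-in replicate 1 it was -0.17. The ratio of Rgs7bp to Rgs9 was nearly constant in wild-type striatum, at 0.518, 0.521 and 0.516, and was 0.558, 0.495 and 0.561 in knock-in striatum (exact permutation test, two-sided, p = 0.4). Rgs9 made up 84.0% to 87.1% of the summed R7 level in wild-type striatum and 84.0% to 86.6% in knock-in striatum, and the difference of the means was -0.43 percentage points (exact permutation test, two-sided, p = 0.8). The sign of that small difference turned without wild type replicate 2 (0.30 percentage points) or knock-in replicate 1 (0.16 percentage points). Together with the summed RGS level given below, 4 such comparisons were made, and each had a Benjamini-Hochberg adjusted p of 0.8 by exact permutation test.

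**Figure D2:**
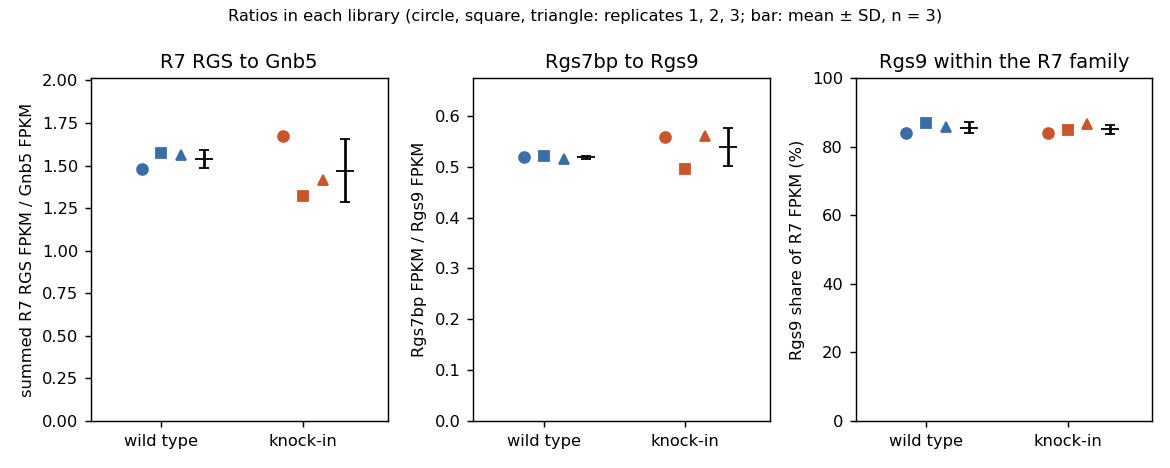
Ratio of summed R7 RGS level to Gnb5, ratio of Rgs7bp to Rgs9 and share of Rgs9 in the summed R7 level (y axes, from 0) in each of 3 wild-type and 3 knock-in libraries, with mean and SD. The ratio of R7 RGS to Gnb5 lies at 1.48 to 1.57 in wild-type striatum and is spread from 1.32 to 1.68 in knock-in striatum, and the Rgs9 share is between 84.0% and 87.1% in all 6 libraries.

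Rgs10, Rgs14 and Rgs20 belong to other subfamilies. Rgs10 (ENSMUSG00000030844, chromosome 7 at 128373621 to 128418758), a small RGS protein of the R12 subfamily that is abundant in microglia as well as neurons, was at 26.9, 25.6 and 26.1 FPKM in wild-type striatum and at 26.0, 30.0 and 27.2 FPKM in knock-in striatum. Knock-in replicates 2 and 3 were above all wild-type libraries and knock-in replicate 1 was among them. The log2 difference was 0.08 (SE 0.07, unadjusted p = 0.284, adjusted p = 0.997), and as a fold its interval ran from 0.946 to 1.18. The 12 microglia markers summed to 342 to 359 FPKM in wild-type striatum and 324 to 361 FPKM in knock-in striatum, with 6 higher and 6 lower and 0 called, and their part in the level of Rgs10 was not tested.

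Rgs14 (ENSMUSG00000052087, chromosome 13 at 55369732 to 55384687), which combines an RGS domain with a GoLoco motif and is known for limiting plasticity in hippocampal area CA2, was the tightest of the 10 genes in wild-type striatum. It was at 28.7, 28.9 and 29.2 FPKM there and at 26.1, 30.7 and 29.9 FPKM in knock-in striatum. No knock-in value fell inside the wild-type range, with 1 below it and 2 above it, and the means of 28.9 ± 0.25 and 28.9 ± 2.47 FPKM (SD, n = 3 each) differed by -0.0050 on the log2 scale. Rgs20 (ENSMUSG00000002459, chromosome 1 at 4909576 to 5070285), an RZ subfamily member selective for Galphaz, ranged from 10.9 to 12.1 FPKM in wild-type striatum and from 11.4 to 12.7 FPKM in knock-in striatum. Its log2 difference was 0.05, with an interval of the fold from 0.928 to 1.15, and 252 of its exon bases lie opposite other genes.

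The knock-in libraries varied more than the wild-type ones. The coefficient of variation was larger in knock-in striatum for 10 of the 10 genes, beside 66.7% of all genes tested, with a median over the 10 genes of 4.68% in wild-type striatum and 7.94% in knock-in striatum and over all genes of 6.13% and 8.85%. In wild-type and knock-in striatum it was nearly the same for Rgs4 (3.44% and 3.56%), Rgs7 (6.16% and 6.32%) and Rgs20 (5.39% and 5.59%). Knock-in replicate 1 was the lowest of the 6 libraries for 6 of the 10 genes (Rgs2, Rgs7, Rgs8, Rgs9, Rgs14 and Gnb5) and the lowest for 16.5% of all genes tested. Knock-in replicate 3 was the highest for 6 of the 10 genes (Rgs4, Rgs8, Rgs9, Rgs20, Rgs7bp and Gnb5) and the highest for 17.6% of all genes, while it was the lowest for 32.0% of all genes. No spread was tested between genotypes.

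**Figure D3:**
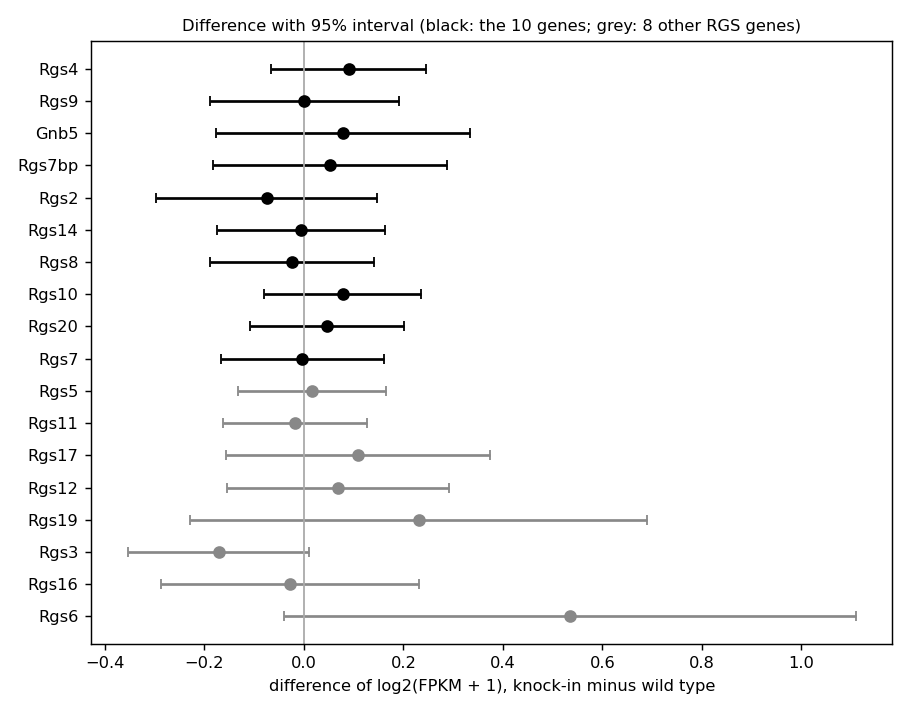
Difference of log2(FPKM + 1), knock-in minus wild type, with its 95% interval (x axis) for the 10 genes in black, ordered by mean level, and for 8 other RGS genes in grey. Each of the 18 intervals includes 0, and the interval of Rgs6 is the widest.

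In order of mean level the 10 genes ran from Rgs4 (357 FPKM) through Rgs9 (121 FPKM), Gnb5 (94.8 FPKM), Rgs7bp (64.0 FPKM), Rgs2 (36.2 FPKM), Rgs14 (28.9 FPKM), Rgs8 (28.4 FPKM), Rgs10 (27.0 FPKM) and Rgs20 (11.7 FPKM) to Rgs7 (6.45 FPKM). Over the 6 libraries the ranges of Rgs14, Rgs8 and Rgs10 overlapped, so their order is not set beyond the spread. The other neighbours in this order did not overlap. Across the 18 RGS genes with values, Rgs4 took 51.3% to 55.0% of the summed level per library and Rgs9 17.0% to 19.3%. Rgs2 followed with 4.66% to 5.92%. The summed level of the 18 genes was 665 ± 5.86 FPKM in wild-type striatum and 689 ± 25.2 FPKM in knock-in striatum (SD, n = 3 each, exact permutation test, two-sided, p = 0.2).

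**Figure D4:**
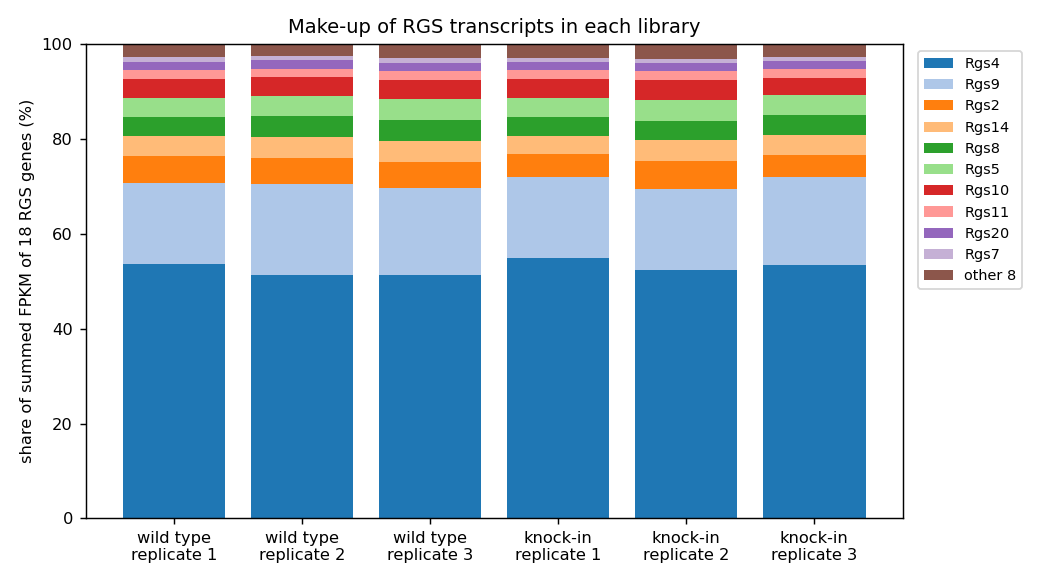
Share of the summed FPKM of 18 RGS genes (y axis, in percent) taken by each gene in each library. Rgs4 takes 51.3% to 55.0% and Rgs9 17.0% to 19.3% in the 6 libraries, so these are the largest segments in both genotypes.

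The RGS genes outside the 10 were compared as a list. Of 13 listed genes 10 had values and 8 were tested, 5 higher and 3 lower in knock-in striatum with a median of 0.04, and 0 were called by limma or had an unadjusted p under 0.05. Rgs5, a regulator abundant in pericytes, was at 28.1 ± 1.35 and 28.4 ± 1.27 FPKM in striatum of wild-type and knock-in mice, and the R7 gene Rgs11 at 12.5 ± 0.323 and 12.4 ± 0.723 FPKM (SD, n = 3 each). Rgs16, which like Rgs4 and Rgs5 belongs to the R4 subfamily, was at 2.20 ± 0.321 and 2.14 ± 0.356 FPKM. Rgs6, the remaining R7 gene, was at 2.13, 0.717 and 0.842 FPKM in wild-type striatum and at 2.58, 2.02 and 1.79 FPKM in knock-in striatum. Wild type replicate 1 lay within the knock-in range, and the difference of 0.54 on the log2 scale (SE 0.24, adjusted p = 0.997) missed the threshold. The libraries with the highest Rgs6, knock-in replicates 1 and 2 and wild type replicate 1, were also those with the highest Slc17a7, and the part of the cortical markers in Rgs6 was not tested. Rgs3 was at 2.61, 2.70 and 2.60 FPKM in wild-type striatum and at 2.45, 2.33 and 1.93 FPKM in knock-in striatum. Its log2 difference was -0.17 (adjusted p = 0.997), and it was the 1 gene of the 8 whose groups did not overlap, beside 9.51% of all genes tested. Rgs19 was at 3.52 ± 1.22 and 4.21 ± 0.687 FPKM.

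The anchors of the R7 proteins differed widely in level. Gpr158, an orphan receptor that binds RGS7, stood beside Rgs7bp with 29.5 ± 1.26 FPKM in wild-type striatum and 30.0 ± 3.27 FPKM in knock-in striatum, a log2 difference of 0.02 (adjusted p = 0.997). Rgs9bp, the anchor of RGS9 in photoreceptors, was at 0.00634 to 0.0242 FPKM over the 6 libraries and was not tested.

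The G proteins that RGS proteins act on were compared in the same way. Of 5 alpha subunits of the Gi, Go and Gz class 3 were higher and 2 lower, with a median of 0.05 and 0 called. Gnai1 was at 16.6 ± 0.159 and 17.6 ± 1.11 FPKM in striatum of wild-type and knock-in mice, and 0 of the 5 had an unadjusted p under 0.05. Of 7 tested alpha subunits of the Gq, G12 and Gs classes 2 were higher and 5 lower, with a median of -0.06, 0 called and 0 with an unadjusted p under 0.05. Gna13 was at 9.17 ± 0.603 and 8.44 ± 0.133 FPKM (SD, n = 3 each), and the difference of -0.11 on the log2 scale was not called (adjusted p = 0.997). It was the 1 gene of these 7 whose groups did not overlap, beside 9.51% of all genes tested. Of 14 other beta and gamma subunits 8 were higher and 6 lower, with a median of 0.0084, 0 called and 0 with an unadjusted p under 0.05. Gng2 was at 5.85 ± 0.663 and 7.12 ± 0.932 FPKM and Gng8 at 2.41 ± 0.513 and 1.83 ± 0.14 FPKM.

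Upstream of them, 19 receptor genes listed as coupling to Gi or Go were tested, with Gpr6 among them, and their coupling was not examined. Of these 13 were higher and 6 lower with a median of 0.018, and 0 were called or had an unadjusted p under 0.05. Of 9 receptors that couple to Gq 9 were on average higher, with a median of 0.11, 1 was called and 3 had an unadjusted p under 0.05. The called gene was Chrm1, the M1 muscarinic receptor, which rose from 6.64 ± 0.154 to 19.3 ± 0.262 FPKM (SD, n = 3 each, log2 difference 1.41, adjusted p = 0.000154). Chrm3 was at 2.39 ± 0.283 and 3.25 ± 0.618 FPKM and the histamine receptor gene Hrh1 at 0.738 ± 0.289 and 1.47 ± 0.564 FPKM, neither called (adjusted p = 0.997 for both). The cortical markers, with summed levels of 68.0, 53.9 and 14.5 FPKM in knock-in replicates 1, 2 and 3, moved with part of this list. Chrm3 was at 3.65, 3.57 and 2.54 FPKM in these replicates and the cholecystokinin receptor gene Cckbr, chosen after its values were seen, at 4.66, 2.87 and 1.67 FPKM, both lowest in knock-in replicate 3, and the part of the cortical markers in the list was not tested. Chrm1 was at 19.2, 19.6 and 19.2 FPKM in the same order, and the part of the cortical markers in its level was not tested. Rgs2 and Rgs4, whose products act on Gq, had the values given above beside this change in Chrm1.

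Downstream, 12 effectors of G proteins were tested, 6 higher and 6 lower with a median of 0.0023, 0 called and 0 with an unadjusted p under 0.05. Kcnj9, a subunit of G protein-gated potassium channels, was at 9.46 ± 0.749 and 11.1 ± 1.90 FPKM in striatum of wild-type and knock-in mice (SD, n = 3 each). Among 20 other modulators of G proteins, such as receptor kinases, arrestins and GoLoco proteins, 6 were higher and 14 lower, with a median of -0.015, 0 called and 0 with an unadjusted p under 0.05. Rasd1, a Ras-like activator of G protein signalling, was at 1.37 to 2.19 FPKM in wild-type striatum and at 1.44 to 1.64 FPKM in knock-in striatum.

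**Figure D5:**
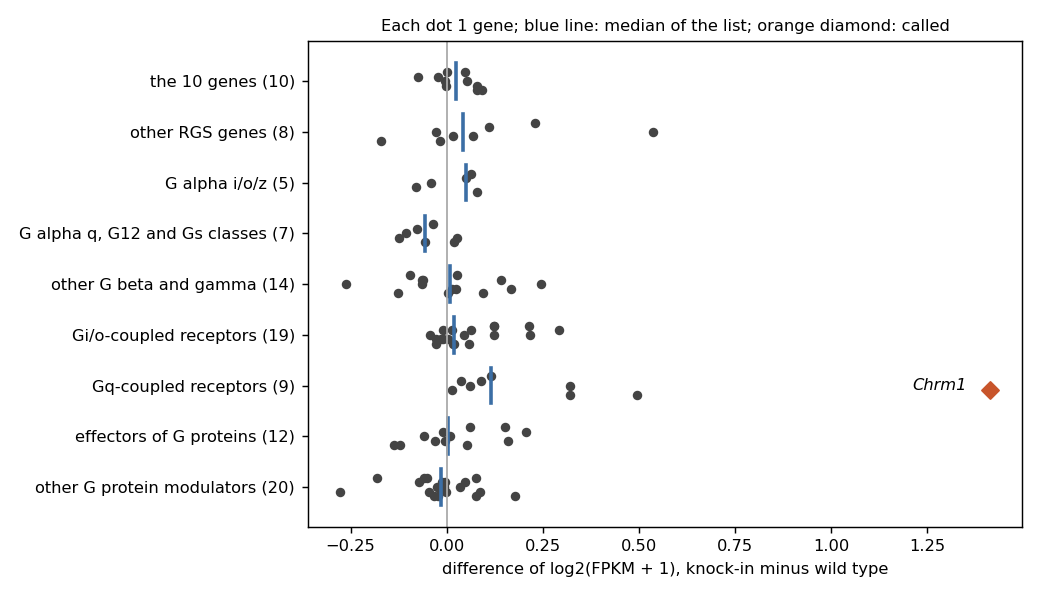
Difference of log2(FPKM + 1), knock-in minus wild type (x axis), of each tested gene in 9 lists of the G protein pathway, with the number tested in brackets and the list's median as a line. The 10 genes lie between -0.07 and 0.09, and Chrm1, at 1.41, is the 1 called gene shown.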

How the data were processed

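RNA levels were measured by RNA sequencing of dorsal striatum, 1 library per sample, 3 wild type and 3 knock-in. The deposited table holds 1 FPKM value per gene and library, made by the authors, per the file headers. The submitters' processing notes list StringTie, HISAT2, SAMtools and FastQC, without versions or roles. Neither the build nor the annotation is given in the sources used here. Columns were assigned by the sample codes in the labels. Values were tested as log2(FPKM + 1), which understates changes of low genes, where a gene's mean over the libraries reached 1 FPKM, with limma 3.58.1 in R 4.3.3 (trended, robust prior), two-sided, with Benjamini-Hochberg adjustment over 14156 genes and a call at an adjusted p under 0.05. All 10 genes passed the filter. Ratios within libraries were compared by exact permutation over samples. The fit was tested on simulated data.

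Positions are from GENCODE M21 on GRCm38, matched by gene identifier, and may differ from the authors' annotation. Upstream sequences are from RefSeq (GRCm38.p6). The 10 genes and all lists were chosen with earlier results of these data known. Outside the 10 genes, the text names in each list any called gene or up to 3 with the smallest p, direct partners of the 10 genes, and Rgs5 and Rgs16, relatives of Rgs4. Xist, Cckbr, Slc17a7, Ppp1r1b and the Y-linked genes were named after their values, or the lack of values, were seen. Alternatives were another pseudocount, other filters, 2 other scalings, an untrended prior, a replicate block, a cortical marker covariate and leaving out each library.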

Additional observations from a re-analysis of the deposited data

How the results depend on the processing

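Across 14 alternatives 0 of the 10 genes were called, with a lowest adjusted p of 0.535 (Rgs7bp with the cortical covariate). Over all genes, 2 to 4 were called under the 8 alternatives that keep all libraries, against 3 as designed, and 3 to 15 when 1 library was left out, where leaving out wild type replicate 2 gave 8, and leaving out knock-in replicates 1, 2 and 3 gave 11, 15 and 6. Rgs4, Rgs10 and Rgs20 were on average higher in knock-in under all 14. The other 7 genes changed sign under some, and the cause was not tested. With quantile normalization Rgs7 was at 0.015 and Rgs9 at -0.010, with median-of-ratios scaling Rgs7 and Rgs14 were at 0.015 each, and with the cortical covariate Rgs7, Rgs8 and Rgs14 were at 0.011, 0.068 and 0.051. Leaving out 1 library gave ranges of -0.17 to 0.0094 for Rgs2, -0.046 to 0.042 for Rgs7, -0.073 to 0.013 for Rgs8, -0.067 to 0.042 for Rgs9, -0.048 to 0.065 for Rgs14, -0.046 to 0.14 for Rgs7bp and -0.0017 to 0.21 for Gnb5. The difference between genotypes, knock-in minus wild type, ranged from -0.17 to 0.0025 for the log2 ratio of R7 genes to Gnb5. For the Rgs9 share it ranged from -1.25 to 0.30 percentage points. Counting Rgs7 and Rgs9 alone as the R7 family, the share differed by 0.026 percentage points (exact permutation test, p = 1).

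Whether the replicate numbers pair the samples could not be settled with 3 libraries per genotype. Deviations from the group means of same-numbered libraries correlated over genes at -0.011, -0.07 and 0.19 for replicates 1, 2 and 3. The libraries of replicate 3 correlated best with each other, and those of replicates 1 and 2 correlated best with another number. With the replicate block 2 genes were called, 0 of them among the 10, the log2 ratio of R7 genes to Gnb5 differed by -0.07 (exact sign-flip permutation test, p = 0.75, smallest possible 0.25), and the Rgs9 share by -0.43 percentage points. The FPKM values carry no read counts, so the spread between 3 libraries per genotype limits the precision.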
